A study of Homo sapiens with 6 samples.

Results

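The genes for the proteins of the mitochondrial ribosome were examined in HCT116, a cell line from a human colorectal cancer. TR-107 activates ClpP, a protease of the mitochondrial matrix. Cells were exposed for 24 h to 50 nM TR-107 (3 libraries) or to its vehicle, 0.1% DMSO (3 libraries), and polyadenylated RNA was sequenced, to ask which transcripts change with the compound. The submitters call these biological replicates; whether each came from a culture of its own is not told, and p-values cover only the spread seen among the libraries. Members were the protein-coding genes whose symbol starts with MRPL or MRPS and a digit, together with DAP3. They numbered 78 of the 28395 gene IDs in the files, 49 of the large subunit (MRPL) and 29 of the small subunit (MRPS and DAP3). Of these, 75 passed the filter on low counts and 3 (MRPL45, MRPS18B and MRPS24) did not.

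Human mitochondria make a small set of inner-membrane proteins on their own ribosomes. The RNA of these ribosomes is encoded by mitochondrial DNA, a 12S rRNA in the small subunit and a 16S rRNA in the large subunit, whereas all of their proteins are encoded in the nucleus, made in the cytosol and imported. Some of the proteins have bacterial counterparts and others are found only in mitochondria. Symbols do not always name the subunit: in the human structure MRPS30 (mL65) and MRPS18A (mL66) sit in the large subunit, so that by structure the members fall into 51 large and 27 small subunit proteins.

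After TR-107, most mRNAs for mitochondrial ribosomal proteins were lower than in DMSO, in both subunits, and mostly by less than 1.5-fold. Of the 75 tested members 61 fell and 4 rose at a Benjamini-Hochberg adjusted p under 0.05 in edgeR's quasi-likelihood test over all genes, beside 28.6% of all 13767 tested genes that fell and 29.2% that rose (57.8% in either direction). The median log2 fold change of the members was -0.32, against 0.01 for all tested genes. The largest fall was that of MRPS34, the only member at least 2-fold lower (3.71% of all tested genes were), and 14 members were at least 1.5-fold lower (10.5% of all tested genes). All 4 members that rose, MRPS10, MRPS16, DAP3 and MRPS33, belong to the small subunit. In 59 tested members every TR-107 library lay below every DMSO library (30.9% of all tested genes), and in 5 every TR-107 library lay above (31.5%).

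**Figure D1:**
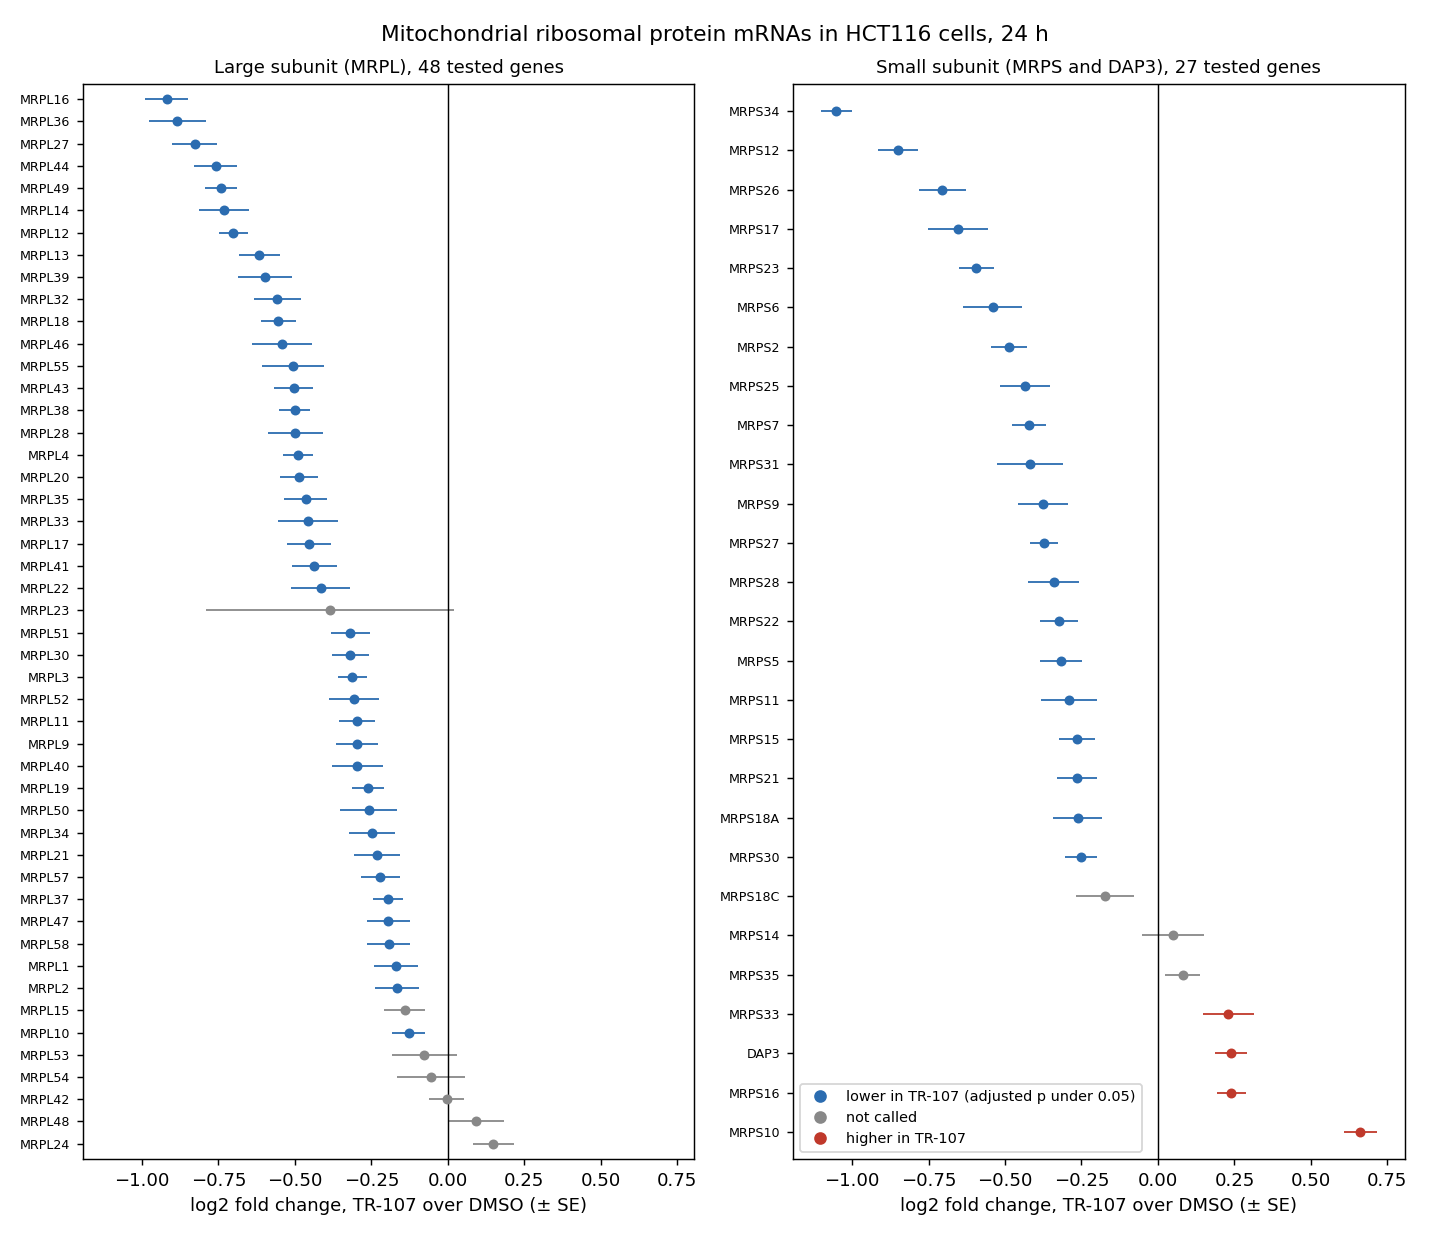
Log2 fold change of TR-107 over DMSO (x axis, ± SE) for the 48 tested large subunit genes (left) and the 27 tested small subunit genes (right), 3 libraries a group, coloured by the edgeR call. Blue points, 41 on the left and 20 on the right, lie below 0, and the 4 red points are all on the right.

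The share of all counts that fell on the 78 members was 0.436%, 0.436% and 0.434% in the TR-107 libraries, against 0.574%, 0.579% and 0.571% in the DMSO libraries. Libraries held 17264039 to 23708135 counts, of which the members took 75256 to 135427. A tested member averaged at least 19.5 CPM, the value of MRPL54, where CPM is a gene's share of the library scaled by TMM factors. CPM are shares of a library's RNA, so fewer transcripts per cell and more of other RNA cannot be told apart. Of 7 epithelial markers 6 were high enough to test and VIL1 was not. Of these 6, CDH1 (1.73-fold, with 153 ± 7.61 CPM in TR-107 and 88.3 ± 2.49 CPM in DMSO (SD, n = 3 each)), KRT18 (1.21-fold) and KRT19 (1.19-fold) rose, CDX2 fell (log2 fold change -0.46 ± 0.11 (SE)), and EPCAM and KRT8 were not called (log2 fold change 0.05 and 0.03). Their part in the results below was not tested. PTPRC had no count in any library, PECAM1 and ALB were too low to test, and COL1A1 had 17.2 ± 1.01 CPM in TR-107 and 14.3 ± 1.74 CPM in DMSO (SD, n = 3 each).

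Promoter sequences are shown for members that moved in either direction, to set the letters around the starts of members that fell beside those of 1 that rose. Elements were sought on both strands of the RefSeq windows (GRCh38.p14, 250 bases before to 50 after a start): the NRF1 element, of a factor known for nuclear genes of mitochondria, ACTTCCGG for the ETS family, which includes GABPA, AAGATGGC for YY1, and TGATGNAA for ATF4 with C/EBP factors. Windows were found for 70 members. Each stretch below runs in the direction of the transcript from 70 bases before the start to 30 after it, with ETS letters (on either strand) or YY1 letters in capitals.
MRPS34 (chr16:1773105-1773204, minus strand): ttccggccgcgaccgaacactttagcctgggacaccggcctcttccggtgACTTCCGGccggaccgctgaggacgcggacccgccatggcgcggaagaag
MRPL16 (chr11:59810749-59810848, minus strand): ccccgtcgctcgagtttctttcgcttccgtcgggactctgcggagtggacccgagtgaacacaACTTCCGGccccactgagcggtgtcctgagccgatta
MRPL27 (chr17:50373155-50373254, minus strand): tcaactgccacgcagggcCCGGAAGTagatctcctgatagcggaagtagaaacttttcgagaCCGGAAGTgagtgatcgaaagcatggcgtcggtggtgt
MRPL46 (chr15:88467359-88467458, minus strand): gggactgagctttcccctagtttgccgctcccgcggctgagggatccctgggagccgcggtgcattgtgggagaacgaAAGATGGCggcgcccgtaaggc
MRPS18A (chr6:43687762-43687861, minus strand): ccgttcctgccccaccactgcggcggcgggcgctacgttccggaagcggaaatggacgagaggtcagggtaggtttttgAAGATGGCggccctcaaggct
MRPS10 (chr6:42217832-42217931, minus strand): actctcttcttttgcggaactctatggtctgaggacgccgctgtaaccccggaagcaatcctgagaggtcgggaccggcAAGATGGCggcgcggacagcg
MRPS34, MRPL16 and MRPL27 are the 3 with ETS letters among the 13 members with a window that fell at least 1.5-fold, and MRPL27 holds 2 matches. Of the other members in that set, MRPL36, MRPL49 and MRPS12 hold YY1 letters and MRPL14 and MRPL36 the NRF1 element, and 6 hold none of these. MRPL46 and MRPS18A, which fell, and MRPS10, which rose, hold the YY1 letters 8, 9 and 9 bases past the start in that order.

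YY1 letters were found in the windows of 21 of 70 members (30%), against 6.36% of 10794 tested genes with a window and 3.52% of all 27305 genes with one. In 15 members (21.4%) the letters, read along the transcript, began within the first 30 bases after the start, against 3.31% of tested genes. AAGATGGC holds ATG, the letters of a start codon, so matches past the start may lie where the coding sequence begins. That was not tested. Anywhere in the window, YY1 letters were held by 16 of 55 members that fell and 1 of 4 that rose. The same was true of 1 of 8 members not called and all 3 that could not be tested. ETS letters stood in 12 members (17.1%, against 9.77% of tested genes). These were 11 of 55 members that fell, 1 of 8 not called and 0 of 4 that rose. NRF1 letters stood in 9 members (12.9%; 13.0% of tested genes), and the ATF4 element in 1, MRPL55 (1.43%; 2.70% of tested genes). Matches of different elements did not overlap. A match is a run of letters and not a measured site, and no match says only that these letters are absent from this window.

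**Figure D2:**
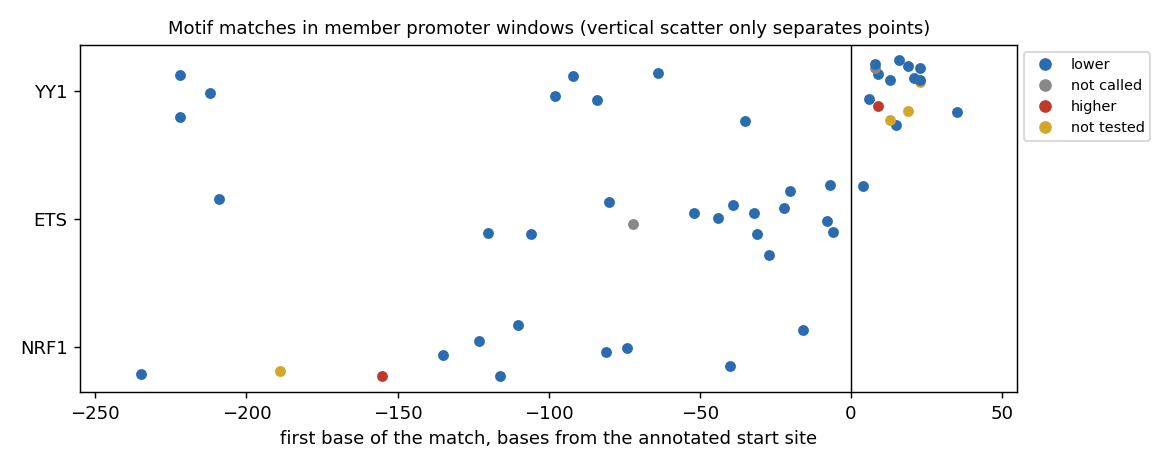
First base of each NRF1, ETS and YY1 match in the members' promoter windows (x axis, bases from the annotated start site), coloured by the member's edgeR call. Most YY1 matches lie just past the start, those of MRPS10, the 1 member with this match that rose, and of the 3 members not tested among them.

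MRPS34 (mS34), a mitochondria-specific protein of the small subunit that is needed for that subunit's stability, fell furthest. It had 76.3, 75.7 and 77.6 CPM in the TR-107 libraries, against 156, 159.6 and 161 CPM in the DMSO libraries. The groups lay far apart, each within a narrow range, and the fall was 2.07-fold (log2 fold change -1.05 ± 0.05 (SE); edgeR adjusted p = 1.47e-21). The gene (GRCh38 chromosome 16, 1771895 to 1773134) overlaps EME2, so reads of the 2 genes may not be fully separated. MRPS12 (uS12m), the protein nearest the decoding site, had 52.0, 52.1 and 46.2 CPM in the TR-107 libraries, against 86.5, 97.4 and 86.3 CPM in the DMSO libraries. It was 1.80-fold lower in TR-107 (log2 fold change -0.85 ± 0.07 (SE)), with no overlap between the groups. MRPS26, a mitochondria-specific protein, averaged 44.7 ± 5.42 CPM in TR-107 and 73.0 ± 6.77 CPM in DMSO (SD, n = 3 each). MRPS17 (uS17m), an rRNA-binding protein of bacterial type, averaged 20.4 ± 2.33 CPM in TR-107 and 32.1 ± 0.892 CPM in DMSO (SD, n = 3 each). MRPS23 (-0.59) and MRPS6 (-0.54) followed on the log2 scale, and the groups overlapped in none of these 6 genes.

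In the large subunit the furthest fall was that of MRPL16 (uL16m), a protein close to the site where peptide bonds form. It had 33.7, 35.9 and 34.7 CPM in the TR-107 libraries, against 64.8, 65.2 and 67.2 CPM in the DMSO libraries, a fall of 1.89-fold (on the log2 scale -0.92 ± 0.07 (SE), with an edgeR adjusted p of 9.02e-15). MRPL36 (bL36m), a small protein of bacterial type, had 19.7, 20.9 and 19.4 CPM in the TR-107 libraries, against 37.9, 38.8 and 34.2 CPM in the DMSO libraries. Its span overlaps NDUFS6, a complex I gene. MRPL27 (bL27m), whose bacterial counterpart reaches toward the catalytic centre, had 35.1, 34.8 and 37.0 CPM in the TR-107 libraries, against 65.4, 65.8 and 58.8 CPM in the DMSO libraries. In each of these 3 genes every TR-107 library lay far below every DMSO library. MRPL44, which has an RNase III-like fold, averaged 42.4 ± 3.05 CPM in TR-107 and 71.7 ± 2.33 CPM in DMSO (SD, n = 3 each), and MRPL49 averaged 86.1 ± 5.59 CPM in TR-107 and 144 ± 4.52 CPM in DMSO (SD, n = 3 each). MRPL14 (log2 fold change -0.73), MRPL12 (-0.70) and MRPL13 (-0.62) were next, again without overlap between the groups.

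**Figure D3:**
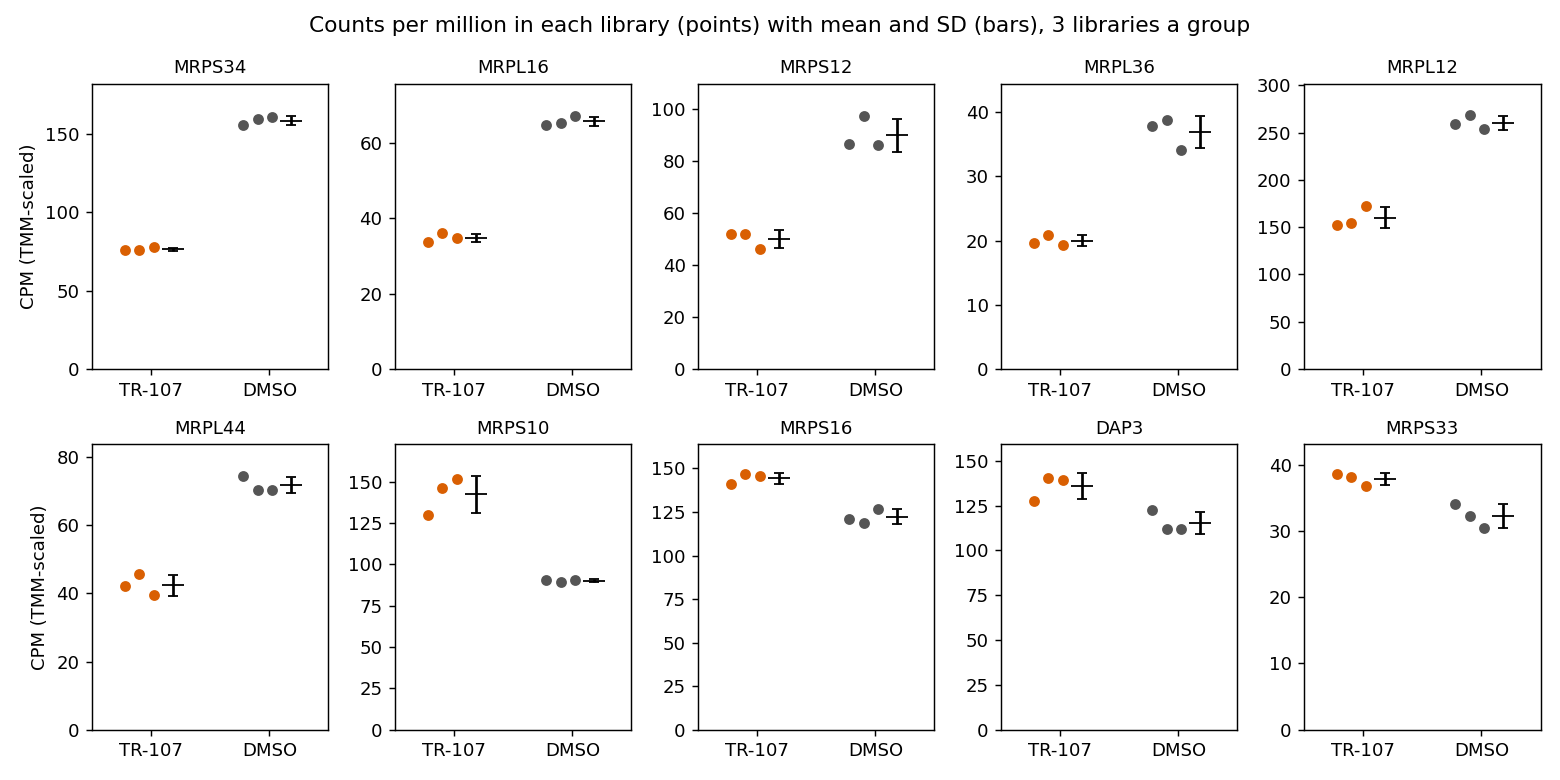
TMM-scaled CPM (y axis) of 10 members in each TR-107 and DMSO library (points), with the mean and SD of 3 libraries (bars). The 6 genes from MRPS34 to MRPL44 lie lower in every TR-107 library, and MRPS10, MRPS16, DAP3 and MRPS33 lie higher.

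MRPS10 (uS10m), a protein of the head of the small subunit, went against the other members most. It had 129.9, 146 and 151 CPM in the TR-107 libraries, against 90.8, 89.1 and 90.5 CPM in the DMSO libraries, and the lowest TR-107 library stood well above the highest DMSO library. The rise was 1.58-fold (log2 fold change 0.66 ± 0.05 (SE)), with an edgeR adjusted p of 4.95e-14, and no other annotated gene overlaps its span (GRCh38 chromosome 6, 42206807 to 42217861). MRPS16 (bS16m), an rRNA-binding protein of the subunit's body, had 141, 147 and 145 CPM in the TR-107 libraries, against 121, 119 and 127 CPM in the DMSO libraries. DAP3 (mS29), a GTP-binding protein of the head that was first described in cell death, had 128, 140.5 and 139.5 CPM in the TR-107 libraries, against 122, 112 and 112 CPM in the DMSO libraries. Both were 1.18-fold higher in TR-107, and their spans overlap DNAJC9-AS1 (MRPS16) and YY1AP1 (DAP3). MRPS33, a mitochondria-specific head protein, had 38.6, 38.2 and 36.8 CPM in the TR-107 libraries, against 34.0, 32.3 and 30.5 CPM in the DMSO libraries and was 1.17-fold higher (edgeR adjusted p = 0.0168). That call was lost without DMSO replicate 3 (adjusted p = 0.0970) and with library size in place of TMM scaling (adjusted p = 0.0869).

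By place in the ribosome, the head of the small subunit held members of both directions. Of its 8 tested members 3 rose (MRPS10, DAP3 and MRPS33), 3 fell and 2 were not called. The shares were 37.5% in each direction, near the 29.2% and 28.6% of all tested genes, and the median log2 fold change was 0.06. Those that fell were MRPS7 (uS7m, -0.42), MRPS9 (uS9m, -0.38) and MRPS31 (-0.42). MRPS14 (uS14m) had 24.4, 23.3 and 21.7 CPM in the TR-107 libraries, against 23.9, 21.2 and 22.1 CPM in the DMSO libraries, and MRPS35 had 85.9, 96.8 and 90.6 CPM in the TR-107 libraries, against 89.9, 84.3 and 84.5 CPM in the DMSO libraries. In MRPS14 and MRPS35 the groups overlapped and the edgeR adjusted p was 0.709 and 0.234. In the central protuberance, the crown of the large subunit, 8 of 9 members fell (28.6% of all tested genes did), from MRPL27 to MRPL58, with a median of -0.50. The exception was MRPL48, at 29.6 ± 1.43 CPM in TR-107 and 27.8 ± 1.52 CPM in DMSO (SD, n = 3 each). These place lists cover members only and were drawn up knowing that MRPS10 had risen, so their counts are descriptions with no test.

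MRPL58 (ICT1), a peptide-releasing factor that became part of the large subunit, had 51.2, 45.9 and 47.2 CPM in the TR-107 libraries, against 55.7, 54.6 and 54.6 CPM in the DMSO libraries. Its fall of 1.14-fold (edgeR adjusted p = 0.0171) was lost without TR-107 replicate 2 (adjusted p = 0.0821) or 3 (adjusted p = 0.0513). The stalk, which recruits translation factors, was uneven. MRPL12 (bL12m), the factor-binding protein at its tip, had 152, 155 and 173 CPM in the TR-107 libraries, against 259, 268 and 254 CPM in the DMSO libraries and was 1.63-fold lower (edgeR adjusted p = 9.80e-17). MRPL10 (uL10m), on which MRPL12 is mounted, had 92.5, 97.5 and 101 CPM in the TR-107 libraries, against 106, 108 and 104 CPM in the DMSO libraries, only 1.09-fold lower. The call of MRPL10 (adjusted p = 0.0372) was lost without TR-107 replicate 1 or 2 or DMSO replicate 1 or 2 (adjusted p = 0.163, 0.0667, 0.0553 and 0.0789). MRPL11 (uL11m), at the stalk base, fell (log2 fold change -0.30 ± 0.06 (SE)). MRPL53 and MRPL54, mitochondria-specific proteins at the same place, were at -0.08 and -0.05, with overlapping groups and an edgeR adjusted p of 0.558 and 0.702. MRPL1 (uL1m), of the other stalk, was at -0.17 ± 0.07 (SE) with overlapping groups. Its edgeR adjusted p of 0.0436 became 0.0519 in DESeq2 and 0.156, 0.156, 0.0506 and 0.138 without TR-107 replicate 1 or 2 or DMSO replicate 2 or 3.

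**Figure D4:**
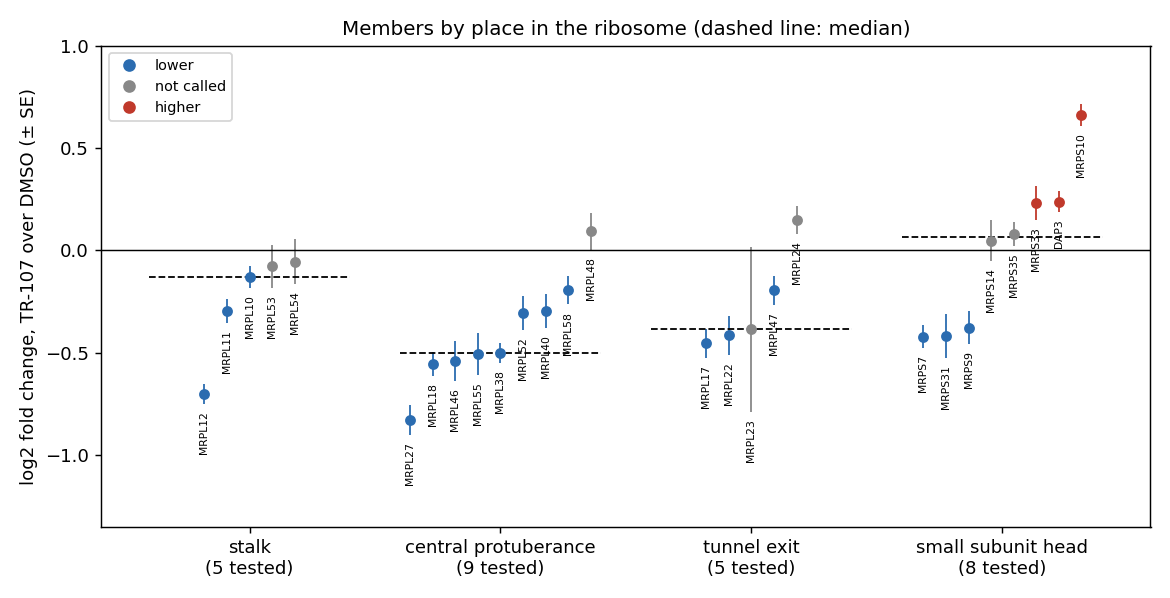
Log2 fold change of TR-107 over DMSO (y axis, ± SE) for the tested members of 4 places in the mitochondrial ribosome, coloured by the edgeR call, with each place's median as a dashed line. The medians are -0.13 for the stalk, -0.50 for the central protuberance, -0.39 for the tunnel exit and 0.06 for the small subunit head, and the red points are MRPS33, DAP3 and MRPS10.

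Around the tunnel exit, where new proteins leave the ribosome, MRPL17 (bL17m, -0.45), MRPL22 (uL22m, -0.42) and MRPL47 (uL29m, -0.19) fell on the log2 scale. MRPL47 lost its call without DMSO replicate 3 (edgeR adjusted p = 0.0855). MRPL24 (uL24m) had 65.7, 64.5 and 74.9 CPM in the TR-107 libraries, against 58.8, 64.2 and 62.1 CPM in the DMSO libraries. Every TR-107 library of MRPL24 lay above every DMSO library, yet the gene, which overlaps HDGF, was just short of the threshold (log2 fold change 0.15 ± 0.07 (SE); edgeR adjusted p = 0.0538). It was called higher without TR-107 replicate 1 (adjusted p = 0.0371) or 2 (adjusted p = 0.0299), and with upper-quartile scaling (adjusted p = 0.0420). MRPL23 (uL23m) had 35.5, 24.5 and 13.5 CPM in the TR-107 libraries, against 27.8, 38.5 and 28.8 CPM in the DMSO libraries, the widest scatter of any tested member (log2 fold change -0.39 ± 0.40 (SE)). Its annotated span, 1947332 to 2014944 on GRCh38 chromosome 11, takes in H19 and MRPL23-AS1, and no change in MRPL23 was detectable (edgeR adjusted p = 0.480). Its log2 fold change was -0.75 without TR-107 replicate 1, -0.08 without TR-107 replicate 3 and -0.23 without DMSO replicate 2. MRPL42, a mitochondria-specific protein outside these places, averaged 118 ± 5.06 CPM in TR-107 and 118 ± 10.4 CPM in DMSO (SD, n = 3 each), with an edgeR adjusted p of 0.958. MRPL15 (uL15m), which contacts the 16S rRNA, was also not called (-0.14; edgeR adjusted p = 0.0698), so that with MRPL23, MRPL24, MRPL42, MRPL48, MRPL53 and MRPL54 there were 7 large subunit members without a call. MRPL15 was called lower without TR-107 replicate 3 (adjusted p = 0.0343), without DMSO replicate 2 (adjusted p = 0.0179) and with library size alone (adjusted p = 0.00686), and its log2 fold change was -0.08 without TR-107 replicate 1.

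The 3 paralogs of bacterial S18 were measured unequally. MRPS18A (mL66), of the large subunit by structure, had 36.1, 35.6 and 42.0 CPM in the TR-107 libraries, against 45.7, 47.0 and 44.0 CPM in the DMSO libraries and fell (log2 fold change -0.26 ± 0.08 (SE); edgeR adjusted p = 0.00473). MRPS18C (bS18m), of the small subunit, averaged 26.9 ± 2.62 CPM in TR-107 and 30.4 ± 2.44 CPM in DMSO (SD, n = 3 each), with overlapping groups and no call (edgeR adjusted p = 0.117). It was called lower without TR-107 replicate 3 (adjusted p = 0.0310) or DMSO replicate 2 (adjusted p = 0.0454) and with library size alone (adjusted p = 0.0285). MRPS18B (mS40) had counts of 0, 0 and 0 in the TR-107 libraries, against 0, 0 and 4 in the DMSO libraries. Of the 3 genes on either side of it on chromosome 6, PRR3, PPP1R10, ATAT1, C6orf136 and DHX16 had at most 11 counts in any library, and ABCF1 had 2 to 96. MRPL45, which anchors the ribosome to the inner membrane, had counts of 9, 6 and 2 in TR-107, against 8, 7 and 6 in DMSO. MRPS24 (uS3m), whose span overlaps the readthrough gene URGCP-MRPS24, had counts of 0, 0 and 0 in TR-107, against 6, 7 and 0 in DMSO. URGCP-MRPS24 itself had no count in any library. COA1, BLVRA and URGCP, near MRPS24, had 235 to 1330 counts. Every tested member had at least 289 counts in each library, and no difference in the 3 untested genes was detectable at these counts. Whether reads of these genes were lost in counting was not tested.

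MRPS30 (mL65), the other large subunit protein with a small subunit name, had 91.6, 91.0 and 96.8 CPM in the TR-107 libraries, against 109, 112 and 111 CPM in the DMSO libraries (log2 fold change -0.25 ± 0.05 (SE); edgeR adjusted p = 7.97e-05). MRPS22, needed for small subunit assembly, averaged 62.3 ± 1.77 CPM in TR-107 and 78.0 ± 3.46 CPM in DMSO (SD, n = 3 each), and MRPS28 (bS1m) averaged 33.1 ± 1.46 CPM in TR-107 and 42.0 ± 3.40 CPM in DMSO (SD, n = 3 each). Both fell, by 0.32 and 0.34 on the log2 scale. The gene formerly called MRPS36 is now KGD4, an adaptor of the 2-oxoglutarate dehydrogenase complex, and was not counted as a member. KGD4 averaged 12.8 ± 2.15 CPM in TR-107 and 14.5 ± 1.88 CPM in DMSO (SD, n = 3 each), with an edgeR adjusted p of 0.257. MRPL46 (mL46) and MRPS11 (uS11m), whose genes lie 319 bases apart on chromosome 15, both fell, with log2 fold changes of -0.54 and -0.29. MRPS11 lost its call without DMSO replicate 2 (edgeR adjusted p = 0.0974).

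Between the subunits, 41 of 48 tested large subunit members fell and 0 rose, and 20 of 27 tested small subunit members fell and 4 rose (28.6% of all tested genes fell and 29.2% rose). DESeq2 and limma-voom also called 0 large subunit members higher, and at an unadjusted p under 0.05 edgeR gave 1, MRPL24. The median log2 fold change was -0.35 in the large subunit and -0.32 in the small. The large subunit median lay midway between MRPL51 (-0.32) and MRPL23 (-0.39 ± 0.40 (SE)), whose libraries scattered widely. Grouped by structure instead, the medians were -0.32 and -0.34, so that their order turned with 2 genes placed otherwise. Fold changes were wider in the small subunit, from -1.05 to 0.66 (SD over genes 0.37), than in the large, from -0.92 to 0.15 (SD over genes 0.25). Members called lower and not described one by one ranged from -0.60 (MRPL39) to -0.17 (MRPL2) in the large subunit and from -0.49 (MRPS2) to -0.26 (MRPS21) in the small, on the log2 scale. MRPL2 was called in 8 of the 15 other fits. No test was made of the difference between the subunits, since the members were chosen with results of these data known.

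Summed over its 49 genes, the large subunit had 2695, 2719.9 and 2759 CPM in the TR-107 libraries, against 3543, 3585 and 3559.6 CPM in the DMSO libraries, so TR-107 stood at 76.5% of DMSO. The 29 small subunit genes summed to 1702, 1747 and 1736 CPM, against 2094, 2061 and 2040.4 CPM, which put TR-107 at 83.7% of DMSO. Neither sum overlapped between the groups. The ratio of the large to the small subunit sum averaged 1.58 ± 0.0170 in TR-107 and 1.73 ± 0.0292 in DMSO (SD, n = 3 each), lower in all 3 TR-107 libraries. The 4 small subunit members that rose summed to 461 ± 20.5 CPM in TR-107 and 360.0 ± 8.26 CPM in DMSO (SD, n = 3 each). Without them, a selection made after their values were seen, the other 25 small subunit genes stood at 74.3% of DMSO. The ratio was then 1.03 times as high in TR-107 as in DMSO, against 0.914 times with all members. The upward direction of that shift was fixed by the selection.

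**Figure D5:**
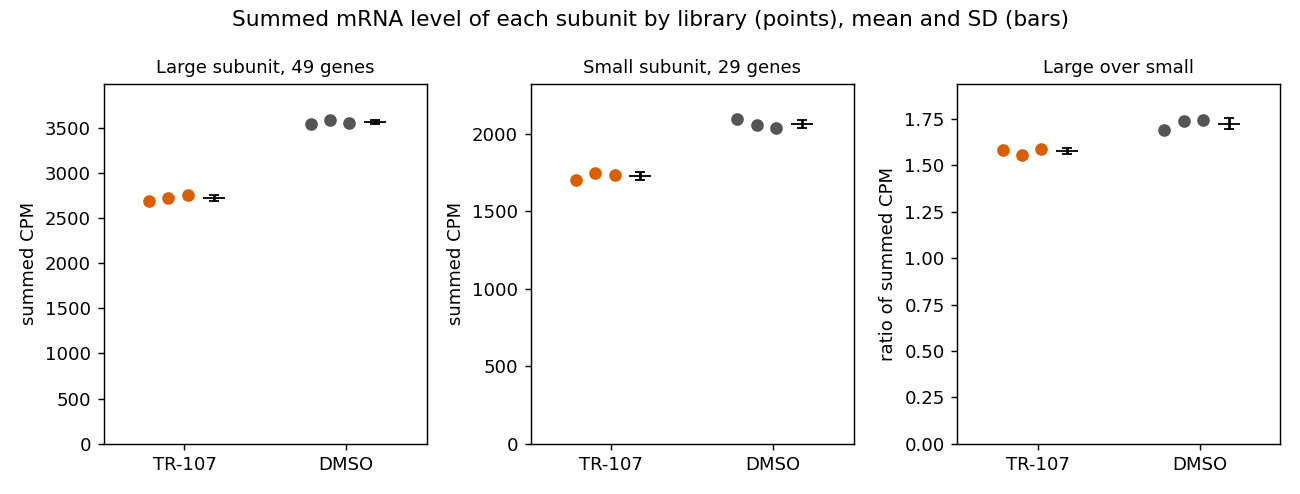
Summed TMM-scaled CPM of the 49 large subunit genes (left) and the 29 small subunit genes (middle), and the ratio of the sums (right), in each TR-107 and DMSO library (points) with the mean and SD of 3 libraries (bars). All 3 quantities lie lower in the TR-107 libraries, with ratios of 1.58, 1.56 and 1.59 in TR-107 against 1.69, 1.74 and 1.74 in DMSO.

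Members fell among proteins of bacterial type and among mitochondria-specific ones. Of 45 tested members with a bacterial counterpart 38 fell and 2 rose (median -0.38), and of 30 mitochondria-specific members 23 fell and 2 rose (median -0.31), beside 28.6% of all tested genes that fell and 29.2% that rose. Within the large subunit by structure the medians were -0.43 (27 of 30 fell) and -0.28 (16 of 20 fell). Within the small subunit they were -0.32 (11 of 15) and -0.40 (7 of 10), so the order was not the same in both subunits. Across the 75 tested members, which share the same libraries, Pearson's r of the log2 fold change with log2 CPM in DMSO was -0.10 and Spearman's rho -0.09. With log2 CPM per kilobase in DMSO they were -0.25 and -0.22, and with log2 coding length 0.04 and 0.06. The DMSO libraries enter both the fold change and the DMSO levels, which by itself pulls r and rho with those levels downward. Per kilobase of transcript (GENCODE 29, the transcript with the longest coding sequence), MRPL12, of which a ribosome carries several copies, had the highest level in DMSO, at 156 ± 10.8 CPM per kilobase in TR-107 and 253 ± 7.22 in DMSO (SD, n = 3 each). In TR-107 MRPL42 (168 ± 7.21 CPM per kilobase) and MRPL12 did not differ beyond their spread. These levels depend on the transcript assumed.

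Of the mRNAs for mitoribosomal proteins with other names, 4 of 4 were lower (28.6% of all tested genes were), with a median of -0.43. AURKAIP1 (mS38) had 93.3, 87.4 and 78.1 CPM in the TR-107 libraries, against 139, 138 and 135 CPM in the DMSO libraries. GADD45GIP1 (mL64, also called CRIF1) averaged 80.3 ± 6.28 CPM in TR-107 and 112 ± 6.37 CPM in DMSO (SD, n = 3 each). PTCD3 (mS39), which guides mRNA into the small subunit, had a log2 fold change of -0.37 ± 0.05 (SE), and CHCHD1 (mS37) one of -0.33 ± 0.10 (SE). The call of CHCHD1 was lost without TR-107 replicate 3 (edgeR adjusted p = 0.0815).

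Of 27 mitoribosome assembly factors, 15 fell and 4 rose (median -0.28; 28.6% and 29.2% of all tested genes). Those with the smallest p among the ones that fell were C1QBP, a matrix protein (-0.64), DHX30, an RNA helicase (-0.45), MPV17L2, an inner membrane protein (-0.97), and MRM3, which methylates the 16S rRNA (-0.82), on the log2 scale. The 4 that rose were NGRN (0.29) and RPUSD3 (0.47), which act on the 16S rRNA, and the GTPases GTPBP10 (0.22) and MTG1 (0.33). The call of MTG1 was lost without any 1 of 5 libraries and that of GTPBP10 without DMSO replicate 3, and both were lost with library size alone. The ribosomal RNAs themselves had higher CPM in these poly(A)-enriched libraries. MT-RNR1 (12S) averaged 7412 ± 451 CPM in TR-107 and 979 ± 130.5 CPM in DMSO (SD, n = 3 each). MT-RNR2 (16S) averaged 15884 ± 629 CPM in TR-107 and 3743 ± 124 CPM in DMSO (SD, n = 3 each). More of these RNAs and more of them with a poly(A) tail cannot be told apart here. The mRNAs for proteins of the cytosolic ribosome also went the other way, with 68 of 83 tested genes higher and 6 lower. Of all tested genes, 29.2% were higher and 28.6% lower. The median log2 fold change was 0.31, against -0.32 for the mitochondrial ribosome and 0.01 for all tested genes.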

How the data were processed

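Each deposited file held 1 library's raw counts by NCBI Gene ID, made by the authors with HISAT2, per the file headers, and featureCounts, per the submitters' processing notes, which also name FastQC, Trimmomatic and hg38. Versions, the gene annotation and the settings for strand and multi-mapping reads are not given in the sources used, so reads of overlapping genes (33 of 78 members) may be split or lost. Of 28395 IDs, 27745 matched a symbol in an NCBI RefSeq table of GRCh38.p14, the source of coordinates and promoters; 650 did not (at most 0.0502% of counts). Groups and replicate numbers came from the treatment labels and titles.

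Counts were tested with edgeR 4.0.16 (R 4.3.3): TMM scaling, filterByExpr, robust quasi-likelihood fit on the group alone, Benjamini-Hochberg adjustment over all genes, threshold 0.05. SE is the log2 fold change divided by the square root of F. The script was tested on simulated data. Replicates differed by more than sampling noise (chi-square per degree of freedom 3.98 to 6.20). Alternatives were other scalings, filters, DESeq2 1.42.0, limma-voom (limma 3.58.1), the replicate block, leaving out each library, and other subunit or member sets.

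The members and lists were chosen with earlier results of these data known, so no list test was made. Named members are those that rose, the 12 lowest (and 6 lowest per subunit) called ones with at least 5 CPM and groups that do not overlap, those untested or lowest, and a list fixed by role; MRPL15, MRPL42, MRPL46, MRPL48, MRPS11, the other head and tunnel exit proteins, those naming the ends of a range and the printed promoters were added after values were seen. From the assembly list, up to 4 a direction with the smallest p are named.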

Additional observations from a re-analysis of the deposited data

How the results depend on the processing

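The sign held for all 61 members called lower and all 4 called higher in each of the 15 other fits over all genes, and 53 and 3 of them were also called in every one. The exceptions were MRPL1, MRPL2, MRPL10, MRPL34, MRPL47, MRPL50, MRPL58, MRPS11 and MRPS33. Same-numbered libraries did not deviate together (r = -0.03, -0.02 and 0.05), and the replicate block left 61 members lower and 4 higher, with a large minus small subunit median of -0.049, against -0.029. Limma-voom gave -0.38 for the large subunit median and -0.052 for that difference. With library size alone the medians were -0.39 for all members, -0.42 for the large and -0.39 for the small subunit. Without a filter on low counts they were -0.34, -0.32 and -0.35, and by structure -0.32 for the large and -0.34 for the small subunit, so that the difference reversed, to 0.022 and 0.023. With members that overlap another gene left out, 36 were lower and 2 higher, because fewer members remained: 25 large lower, and 11 small lower and 2 higher. The medians were then -0.43 and -0.29, the difference -0.14 and the TR-107 over DMSO ratio of the sums' ratio 0.856. Leaving out the small subunit members called higher, a choice made after seeing the data, can only raise that ratio, and it was then 1.03. Grouped by structure, with all members, the large over small ratio in TR-107 was 91.8% of that in DMSO. Upper-quartile scaling called 1 large subunit member (MRPL24) higher. Leaving out 1 library gave medians of -0.36 to -0.33 for all members, -0.39 to -0.34 for the large and -0.35 to -0.31 for the small subunit. The difference was -0.077 to 0.0012, reversed without TR-107 replicate 3, the ratio 0.905 to 0.919, and large subunit members called higher 0 to 1. MRPL23, which with MRPL51 set the large subunit median in the main fit, moved between fits. Its log2 fold change was -0.52 in limma-voom, -0.45 with the replicate block and -0.08 without TR-107 replicate 3. Apart from those by construction, the causes of these shifts were not tested. Among the members, low counts kept MRPL45, MRPS18B and MRPS24 from a test.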
